A study of Mus musculus with 4 samples.

Results

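Among CD4 T cells recovered from 2 hosts, cells whose T cell receptor β chain used TRBV12-1, TRBV12-2, TRBV16 or TRBV15 were compared with cells using other V segments. TRBV12-1 and TRBV12-2 encode Vβ5, TRBV16 encodes Vβ11 and TRBV15 encodes Vβ12. Cells were kept if 500 or more genes were detected, if no more than 10% of their UMIs (unique molecular identifiers, counted molecules) were mitochondrial, and if they had exactly 1 TRB contig and at most 2 TRA contigs in the receptor table of the same mouse. Of 12325 kept cells, 841 carried 1 of these 4 segments, 395 of 5993 in mouse 1 and 446 of 6332 in mouse 2. The comparison class, called other cells below, held 5756 cells (2555 and 3201) with none of the 4 segments and neither TRBV26 (Vβ3) nor TRBV23 (Vβ20). The remaining kept cells were 4044 Vβ3 and 1684 Vβ20 cells.

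All cells shared 1 history. Donors were B6.H2g7 mice (strain B6.NOD-(D17Mit21-D17Mit10)/LtJ, 6 to 8 weeks old), whose splenic CD4 T cells were purified on a magnetic column. NOD.Rag1null hosts, which lack mature T and B cells of their own, received 5e+06 of these cells. On day 14 live CD4+ TCRβ+ cells were sorted from each host spleen, and 10x 5′ v2 libraries of expression and receptor were made from each host. There was no untreated or day 0 sample. The labels call each host replicate 1 of its mouse and do not say whether donor cells were pooled, so the errors here measure the spread between 2 hosts only.

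Vβ5, Vβ11 and Vβ12 are classical superantigen-reactive families. Superantigens of endogenous mouse mammary tumour viruses bind the side of certain Vβ domains, mainly through CDR1, CDR2 and the fourth hypervariable loop, and so engage T cells by V segment rather than by peptide specificity. The class II molecule I-E presents many of them, and neither C57BL/6 mice nor H2g7 mice express it. Regulatory T cells (Treg cells) are CD4 cells defined by the transcription factor Foxp3, and they restrain other T cells.

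The sequences below show CDR1 and CDR2 of each segment, so that the 4 segments can be compared. The fourth hypervariable loop is not part of the stretch shown. Each line runs 5′ to 3′ from CDR1 through CDR2 of the V region assembled in these cells, with CDR1 and CDR2 in capitals and the framework between them in lower case. TRBV13-2 (Vβ8.2) is shown because the receptor tables give 842 cells the joint call TRBV12-2+TRBV13-2.

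TRBV12-1: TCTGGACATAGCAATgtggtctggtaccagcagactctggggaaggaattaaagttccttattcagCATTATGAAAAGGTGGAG

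TRBV12-2: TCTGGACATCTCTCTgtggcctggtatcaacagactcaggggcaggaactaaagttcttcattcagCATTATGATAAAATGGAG

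TRBV16: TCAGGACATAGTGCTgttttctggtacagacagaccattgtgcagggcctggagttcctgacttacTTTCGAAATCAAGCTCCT

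TRBV15: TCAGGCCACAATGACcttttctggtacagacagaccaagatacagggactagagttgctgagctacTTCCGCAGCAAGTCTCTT

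TRBV13-2: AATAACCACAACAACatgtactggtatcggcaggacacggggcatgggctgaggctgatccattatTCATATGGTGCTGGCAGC

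The 2 Vβ5 segments were 88.1% identical over the V region, TRBV16 and TRBV15 71.8%, and a Vβ5 segment matched TRBV16 or TRBV15 at 50.7% to 56.7%. In GRCm38 all 4 genes lie on the plus strand of chromosome 6 with 2 exons each: Trbv12-1 at chr6:41113550-41114067, Trbv12-2 at chr6:41118851-41119364, Trbv15 at chr6:41141188-41141658 and Trbv16 at chr6:41151740-41152230. The assembled V region was found whole in the reference transcript in 180 of 181 TRBV12-1 cells, all 236 TRBV12-2 cells, all 324 TRBV16 cells and 99 of 100 TRBV15 cells. In the assembled contigs, all 842 jointly called cells carried the TRBV13-2 CDR1 and CDR2 and none the TRBV12-2 CDR1, so they stayed among the other cells. Their transcripts were mixed. Among jointly called cells with a leading V transcript, that is 1 transcript with more UMIs than any other and at least 2, Trbv13-2 led in 66.7% and 56.4% and Trbv12-2 in 26.9% and 39.0%. In the 4 segments the leading transcript was that of the contig in 94.6% to 100% of such cells of each segment in each mouse. Over all kept cells Trbv12-2 led in 155 and 276 cells, against 96 and 140 TRBV12-2 cells by contig. In other cells, Trbv12-1, Trbv15 and Trbv16 each had a UMI in at most 3.44% of cells, and Trbv12-2 in 19.9% and 24.2%. Where the joint and TRBV13-2 calls were set aside, Trbv12-2 had a UMI in 10.4% and 13.9% of other cells.

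The matrices held 9996 and 9733 cell barcodes with 70092822 and 75940181 UMIs in mouse 1 and mouse 2, and kept cells had medians of 5596 and 6219.5 UMIs. Summed UMIs were 2903553 and 3455547 for the 4 segments and 16831803 and 22833957 for other cells. Depth differed by segment. Median UMIs were 6310 and 7322.5 in Vβ5, 6010.5 and 5960.5 in Vβ11, 4969.5 and 6928.5 in Vβ12 and 5665 and 6134 in other cells. The hosts shared 166 barcodes by sequence, 58 of them among kept cells. CD4 T cell identity genes summed to 5757 and 5692 CPM, UMIs scaled to a common library total, in the 4 segments and 5812 and 5999 CPM in other cells. Cd8a, Csf1r and all 5 platelet genes were at 0 in the 4 segments. In summed counts, more cells expressing a gene and more RNA per cell cannot be told apart.

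The 4 segments made up 6.59% and 7.04% of kept cells (mean 6.82% ± 0.320, SD, n = 2 mice). TRBV16 was the most frequent, at 2.97% and 2.31%, followed by TRBV12-2 at 1.60% and 2.21%, TRBV12-1 at 1.35% and 1.58%, and TRBV15 at 0.667% and 0.948%. The order of TRBV16, TRBV12-2, TRBV12-1 and TRBV15 was the same in both mice. With 2 mice per class an exact two-sided permutation test cannot give a p below 0.333, so shares are given as values for each mouse with exact (Clopper-Pearson) intervals at 95%, a measure of counting error alone.

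Cells with a Foxp3 transcript were most frequent among Vβ5 cells. At least 1 Foxp3 UMI was found in 75.7% (68.7% to 81.8%) and 83.3% (78% to 87.8%) of Vβ5 cells, against 19.0% (17.5% to 20.6%) and 17.1% (15.8% to 18.4%) of other cells. Vβ11 cells had 13.5% and 23.3%, on either side of other cells, and Vβ12 cells 40.0% and 41.7%. A cluster led by Il4 and Sostdc1, which should lack Foxp3, had 1.56% and 0.770% at median depths of 5200.5 and 5835 UMIs. Thinned to 2000 UMIs per cell, the shares were 50.3% and 59.6% in Vβ5, 9.20% and 17.5% in Vβ11, 28.9% and 30% in Vβ12, and 13.3% and 12.2% in other cells. Cells too shallow to thin numbered 4 and 0 in Vβ5 and 65 and 40 in other cells. Both Vβ5 values therefore lay above all values of the other cells at equal depth, and the Vβ11 values spanned them.

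Unsupervised clusters, built without receptor genes, gave the same ordering from the same transcripts, so they are a second view and not an independent measure. A Treg-like cluster was led by Rln3, Foxp3, Itgae, Mmp9 and Ncmap. It held 75.3% (64.5% to 84.2%) and 65.0% (54.8% to 74.3%) of TRBV12-1 cells and 64.6% (54.2% to 74.1%) and 87.9% (81.3% to 92.8%) of TRBV12-2 cells. It held 15.1% of other cells in each mouse. Among 21 V calls with at least 20 cells, TRBV12-1 ranked 1 and TRBV12-2 ranked 2 in mouse 1, and they changed places in mouse 2. TRBV15 ranked 4 and 3, with 32.5% (18.6% to 49.1%) and 36.7% (24.6% to 50.1%). TRBV16 had 7.30% (3.95% to 12.2%) and 21.9% (15.5% to 29.5%), below other cells in mouse 1 and above them in mouse 2. TRBV5, which is no member, had 42.9% in mouse 1 and 21.7% in mouse 2.

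**Figure D1:**
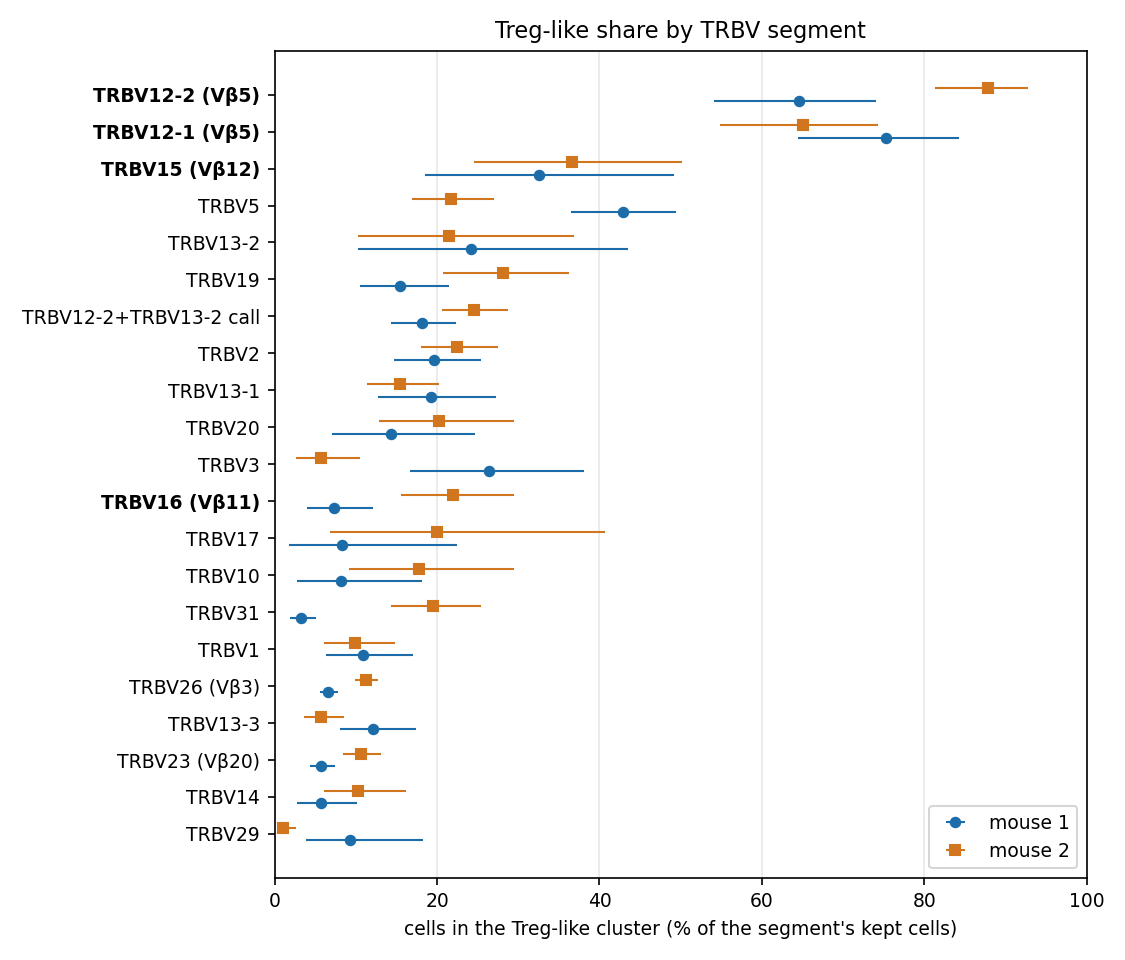
Share of each V segment's kept cells in the Treg-like cluster (x axis, %) for 21 V calls (y axis), mouse 1 as circles and mouse 2 as squares, with exact 95% intervals as lines and the 4 compared segments in bold. TRBV12-1 and TRBV12-2 lie between 64.6% and 87.9% in both mice, whereas TRBV16 has 7.30% and 21.9%.

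Outside the Treg-like cluster the segments also differed in where their cells lay. A cluster led by Klra3, which also expressed Cx3cr1 and Klrd1, held 22.5% and 8.90% of TRBV16 cells and 14.9% and 25.0% of other cells, but 0% and 3.00% of TRBV12-1 and 1.04% and 0% of TRBV12-2 cells. A Th1-like cluster led by Ccl5 held 20.8% and 14.4% of TRBV16 cells, and at most 3.00% of cells of either Vβ5 segment in a mouse. TRBV15 had 12.5% and 23.3% of its cells in the naive-like cluster led by Igfbp4, and TRBV12-2 had 0% and 2.14%. For the Klra3 cluster, 0 of 81 TRBV12-1 cells in mouse 1 allows a share of up to 3.70%, and 0 of 140 TRBV12-2 cells in mouse 2 allows up to 2.14%. For the Igfbp4 cluster, 0 of 96 TRBV12-2 cells in mouse 1 allows up to 3.12%.

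**Figure D2:**
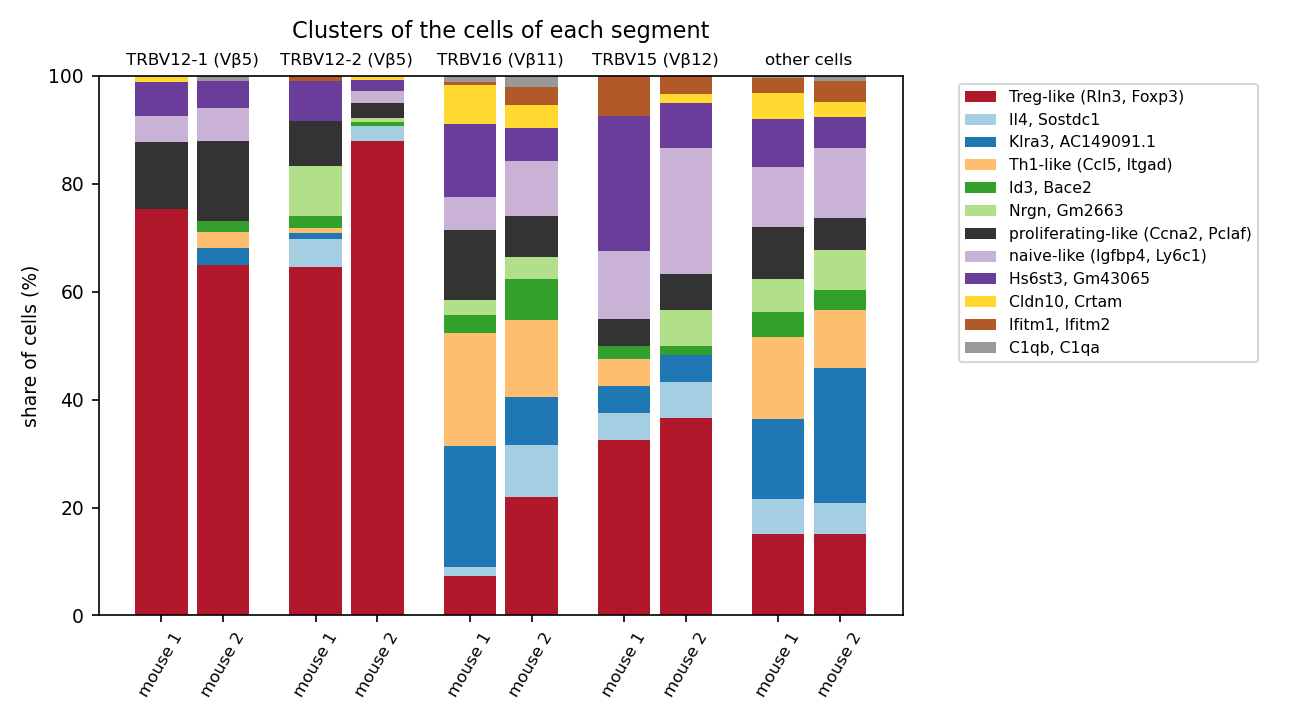
Stacked bars of the share of cells (y axis, %) in each of 12 clusters, for the 4 segments and the other cells in each mouse (x axis), with colours naming the leading genes. The Treg-like part is the largest in all 4 Vβ5 bars, and the Klra3 and Th1-like parts fill more of the TRBV16 bars than of the Vβ5 bars.

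Foxp3 was also found in Vβ5 cells placed in other clusters. Of Vβ5 cells outside the Treg-like cluster, 27 of 54 and 23 of 52 had a Foxp3 UMI, against 134 of 2168 (6.18%) and 106 of 2717 (3.90%) of other cells, 12 of 165 and 4 of 114 of Vβ11 cells, and 6 of 27 and 4 of 38 of Vβ12 cells. Within the proliferating-like cluster, led by cell cycle genes such as Ccna2, 17 of 18 and 16 of 19 Vβ5 cells had Foxp3, against 75 of 246 and 46 of 189 other cells. Within the Treg-like cluster the shares were 87.0% and 94.1% in Vβ5 and 90.7% and 90.9% in other cells, and these ranges overlap.

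The first test compared all 4 segments together with other cells, asking how cells of known superantigen-reactive segments differ in state. Of regulatory T cell genes 12 of 14, and of receptor signal genes 8 of 15, were called higher in the 4 segments. Called lower were 6 of 14 naive genes and single effector genes such as Gzma and Ccl5. Foxp3 was at 261 and 394 CPM against 116 and 108 CPM, and rose by 1.54 on the log2 scale (SE 0.155, edgeR adjusted p = 0.0119). Ikzf2, the transcription factor Helios, was at 904 and 778 CPM against 420 and 329 CPM (log2 1.18, SE 0.0607, edgeR adjusted p = 0.00277). Both genes were higher in 2 of 2 mice and their ranges did not overlap. edgeR called 295 of 12045 genes (2.45%) at an adjusted p under 0.05, 205 higher (1.70%) and 90 lower (0.747%). Without the mouse as a block the count was 109, and DESeq2 gave 176. In a further fit, 9 V calls of the other cells, those well filled in both mice, were classes of their own with equal weight. The remaining V calls, TRBV29 and TRBV3 among them, were left out, so the comparison cells also differed. This fit called 290 genes. Of 37 named calls 14 were lost, among them Gzma (edgeR adjusted p = 0.349), Ccl5 (0.739), Ifitm1 (0.526), Igfbp4 (0.218) and Il2ra (0.0862).

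Of the 14 tested genes of the regulatory T cell list, 12 rose and none fell, with a median log2 difference of 1.17 against -0.00366 over all genes. Ctla4, an inhibitory receptor of Treg cells, was at 349 and 567 CPM against 162 and 154 CPM (log2 1.51). Il2ra, the interleukin-2 receptor α chain, was at 65.1 and 117 CPM against 40.8 and 49.1 CPM (log2 1.0), with the call lost without the block (edgeR adjusted p = 0.146). Itgae, the CD103 integrin chain, rose by 1.37. Gpr83, Ikzf4, Lrrc32, Tnfrsf4, Tnfrsf18, Capg and Izumo1r rose as well, by 0.86 to 1.74. Nrp1 at -0.41 and Il1rl1 at -0.51 did not pass.

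The largest increases were not all classical Treg genes. Igsf23, an immunoglobulin-family gene, was at 27.9 and 43.4 CPM against 5.76 and 4.51 CPM (log2 2.82, SE 0.250, edgeR adjusted p = 0.00869). Rln3, the gene of the peptide hormone relaxin-3, was at 231 and 229 CPM against 54.6 and 33.5 CPM (log2 2.43). Mmp9, a matrix metalloprotease, was at 20.7 and 23.4 CPM against 4.28 and 4.64 CPM (log2 2.31). Cep112, Cd72 and Tnip3, an inhibitor of NF-κB signalling, rose by 1.75 to 1.89. Klrg1, a marker of terminally differentiated T cells, was at 121 and 131 CPM against 33.9 and 39.2 CPM (log2 1.79), with no overlap. Gm8281 rose by 2.50, but 85.8% of its 31-base words occur in other genes, so its value is uncertain.

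Among the genes that fell, Gzma, a granzyme of cytotoxic lymphocytes, was at 9.99 and 12.7 CPM against 49.0 and 58.8 CPM (log2 -2.24, SE 0.122, edgeR adjusted p = 0.00288). Spp1, osteopontin, was at 22.0 and 8.10 CPM against 62.7 and 123 CPM (log2 -2.62). Ifitm1 was at 38.6 and 39.9 CPM against 138 and 188 CPM (log2 -2.05). Gcg, the proglucagon gene, fell by 2.52, Klrc1 by 1.64, and Nrgn and Tmem163 by 1.59 each. Klrc1 shares 53.1% of its 31-base words with Klrc2, Klrc3 and other genes. Foxp3 shares 16.2% of its words with Flicr, and Spp1 14.3% with Gm42793, so a part of their reads could be split between annotations. The calls for Spp1 and Gcg were lost with DESeq2 (adjusted p = 0.275 and 0.0528) and, like that for Klrc1, without the block (edgeR adjusted p = 0.0669, 0.0669 and 0.0503). With 1 cell per clonotype Gcg was at -1.36, Tmem163 at -0.74 and Nrgn at -0.53, none past the threshold, and in another draw Nrgn was at 0.0139. The largest decrease, 5830405F06Rik at -3.26, is a transcript within the receptor locus at chr6:41055883-41063102 that overlaps Trbv4 and Trbv5. Its level varied within the 4 segments and was 16.8 CPM in TRBV15 of mouse 2, rank 3 of 21 V calls.

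Of 15 tested genes of the T cell receptor signal list, 8 rose and none fell (median 0.79). Nr4a1, an immediate early gene of receptor signalling, was at 111 and 142 CPM against 50.6 and 32.9 CPM (log2 1.64). Nfkbid rose by 1.13, Egr2 by 0.98 and Tnfrsf9, the 4-1BB receptor, by 0.82. The list of naive and quiescent cells had 1 gene higher and 6 lower of 14 (median -0.64), among them Klf2 (-0.99), Igfbp4 (-1.18), Il7r (-0.71) and Tcf7 (-0.64). Bcl2, which blocks apoptosis, fell by 0.94. Of 16 Th1 genes, 2 rose and 3 fell, with Ccl5 at 9141 and 6355 CPM against 14971 and 15659 CPM (log2 -1.0) and Cxcr6 at -1.13. Ifng, at 124 and 88.0 CPM against 156 and 144 CPM, did not pass (log2 -0.51, edgeR adjusted p = 0.0557). Nor did Pdcd1 (-0.77), Id3 (-0.47) or Nkg7 (-0.60). Il10 (1.37) and the chemokine receptor gene Ccr2 (1.02) rose, and Cd40lg (-0.87) and Il21 (-0.67) fell. The Il21 value was -0.27 without TRBV12-1 and -0.37 without TRBV12-2, and its call was lost under both and with DESeq2 (adjusted p = 0.289). Without the block the calls for Il21, Cd40lg, Egr2, Tcf7, Il7r and Cxcr6 were lost (edgeR adjusted p of 0.0503 to 0.377). The Tcf7 call was also lost without TRBV12-1 (-0.42, edgeR adjusted p = 0.0609). No interferon response gene of 16 passed, and 1 proliferation gene of 22 rose, Mki67 not being among them (0.28).

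With other cells drawn to the cluster composition of the 4 segments, 81 genes were called and 15 of 37 named calls were lost. The Foxp3 difference was then 0.20 and missed the threshold (edgeR adjusted p = 0.155), Il2ra was at -0.18, and Rln3 remained past the threshold at 1.03. Foxp3 and Rln3 lead the Treg-like cluster, so matching on clusters in itself narrows their differences. Counting each clonotype once left Foxp3 at 1.02 and Rln3 at 1.85. Summed markers of B cells and dendritic cells were above those of other cells in both mice. B cell list genes summed to 304 and 426 CPM against 199 and 197 CPM, mostly from Ighm, and 1 of 4 tested was called higher. Dendritic list genes, which include class II genes, summed to 469 and 800 CPM against 237 and 198 CPM, and 2 of 5 tested were called higher (median 1.57), with Flt3, Xcr1 and Siglech at 0. The 800 CPM of mouse 2 include a single Vβ11 cell, in a cluster led by C1qb, with 804 class II UMIs. In Vβ5 the highest cell held 47 of 1094 class II UMIs in mouse 1 and 41 of 1606 in mouse 2. NK cell, myeloid and erythroid list genes each summed to at most 28.2 CPM in the 4 segments. Their part in the results was not tested.

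The 4 segments did not share 1 pattern, so each family was tested alone against the same other cells. The family results below share those cells and are not independent of each other. Levels by segment are given in the plot of 8 genes by segment and mouse.

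**Figure D3:**
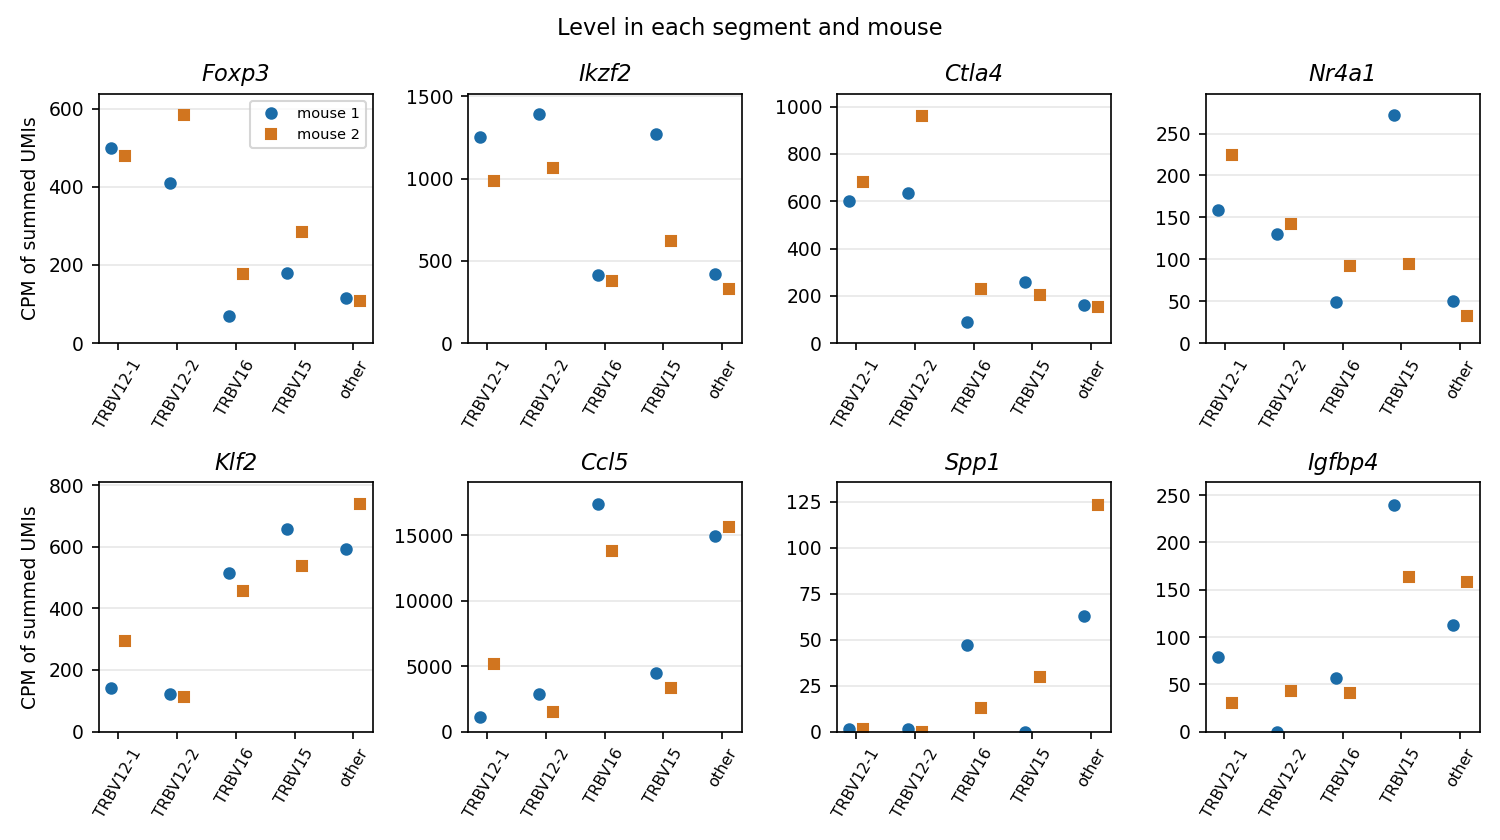
Level of 8 genes (y axes, CPM of summed UMIs, each panel from 0) in the cells of the 4 segments and in other cells (x axis), mouse 1 as circles and mouse 2 as squares. Foxp3 reads 410 to 583 in the Vβ5 segments, 180 and 284 in TRBV15, 70.5 and 176 in TRBV16, and 116 and 108 in other cells.

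Vβ5 cells had the highest levels of Treg transcripts. Foxp3 was at 499 and 480 CPM in TRBV12-1 and 410 and 583 CPM in TRBV12-2, the 2 highest of 21 V calls in each mouse. Over both segments it was 497 ± 55.6 CPM against 112 ± 5.45 CPM in other cells (SD, n = 2), a log2 difference of 2.18 (SE 0.0804, edgeR adjusted p = 1.89e-13). Ikzf2 was at 1319 and 1028 CPM against 420 and 329 CPM (log2 1.67), and Ctla4 at 616 and 835 CPM against 162 and 154 CPM (log2 2.22). Rln3 was at 452 and 377 CPM against 54.6 and 33.5 CPM (log2 3.29), and Igsf23 at 57.1 and 63.5 CPM against 5.76 and 4.51 CPM (log2 3.60). For these 5 genes every Vβ5 value lay above every value of other cells. edgeR called 1959 of 11842 genes (16.5%), 1038 higher (8.77%) and 921 lower (7.78%). DESeq2 called 708, and edgeR without the block 1215.

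Of 14 Treg genes 12 rose in Vβ5 and 1, Nrp1, fell (-0.97), with a median of 1.73. Nrp1 is a surface receptor often used to mark thymus-derived Treg cells. Gpr83 rose by 2.40, Ikzf4 by 1.92, Lrrc32, which anchors latent TGF-β, by 1.86, and Tnfrsf4 by 1.80. Of 15 receptor signal genes 12 rose, Nr4a1 by 2.04 and Egr2 by 0.98, and 1, Nr4a2, fell, from 63.8 and 72.9 CPM in other cells to 4.39 and 15.9 CPM. Il10 rose by 1.98. Klrg1 was at 158 and 199 CPM against 33.9 and 39.2 CPM (log2 2.32). Gm3252, Gm8281 and Gm3264 showed differences of 3.31 to 3.42, but 85.8% to 96.4% of their sequence words occur in near-identical genes.

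The naive list had 12 of 14 genes lower in Vβ5 and 1, Satb1, higher (median -1.30). Klf2, which keeps T cells quiescent and recirculating, was at 132 and 195 CPM against 591 and 740 CPM (log2 -2.0). Dapl1 fell by 4.39, Igfbp4 by 1.79, Tcf7 by 1.59 and Bcl2 by 1.81. Of 16 Th1 genes 11 fell and 3, Cxcr3, Il12rb1 and Hopx, rose. Ccl5 was at 1942 and 3155 CPM against 14971 and 15659 CPM (log2 -2.60), and Ifng at 38.1 and 36.4 CPM against 156 and 144 CPM (log2 -1.98). All 7 tested Th17 genes were lower, among them Il23r by 3.28. Of 12 cytotoxic genes 9 fell, Klrd1 from 43.7 and 69.8 CPM to 1.46 and 2.05 CPM (log2 -4.99), while Klrg1, Gzmb (1.02) and Cst7 (0.65) rose.

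Spp1 showed the largest Vβ5 decrease among the named genes. It was at 1.46 and 0.512 CPM against 62.7 and 123 CPM, a log2 difference of -6.71 (SE 0.305, edgeR adjusted p = 2.85e-12). Hs6st3, a heparan sulphate enzyme, fell by 4.52 and Kcnk5, a potassium channel gene, by 4.30. Il21 fell by 2.99, Cd40lg by 1.73 and Pdcd1 by 1.68, the calls for Cd40lg and Pdcd1 being lost with DESeq2 (adjusted p = 0.236 and 0.067). Of 16 interferon response genes 8 rose and none fell, with Ifi27l2a at 2235 and 2678 CPM against 1182 and 1248 CPM (log2 1.03) and Isg15 at 0.86. In Vβ5, B cell list genes summed to 494 and 539 CPM and dendritic list genes to 801 and 823 CPM, with 2 of 4 tested in each list called higher. At matched cluster composition 405 genes were called for Vβ5, 9 of 34 named calls were lost, and the Foxp3 difference was 0.15 (edgeR adjusted p = 0.28). Ikzf2 was then at 0.36 and Rln3 at 1.18. As above, matching on clusters in itself narrows the Foxp3 and Rln3 differences.

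**Figure D4:**
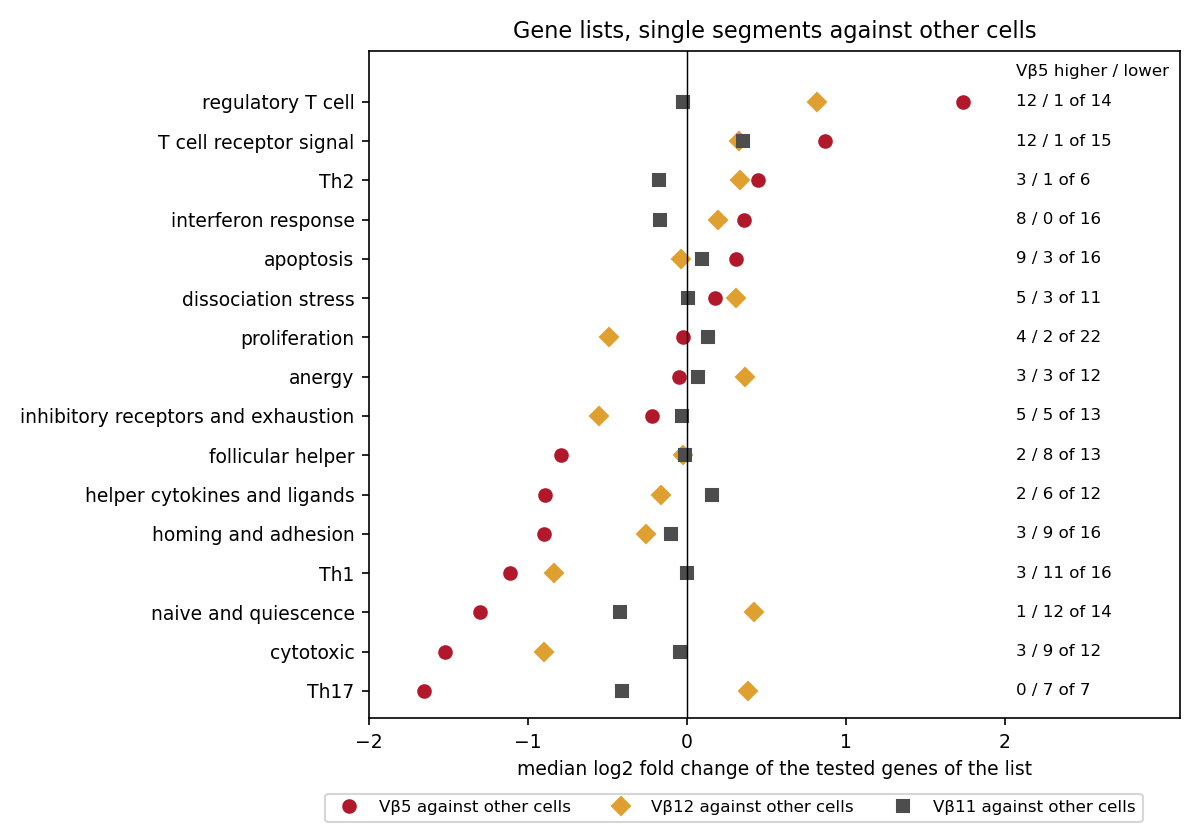
Median log2 difference from other cells (x axis) over the tested genes of 16 lists (y axis) in Vβ5 (circles), Vβ12 (diamonds) and Vβ11 cells (squares), with the number of genes called higher and lower in Vβ5 at the right. The regulatory T cell list reads 1.73 in Vβ5, 0.82 in Vβ12 and -0.03 in Vβ11.

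In Vβ11 cells no gene passed the test against other cells. Foxp3 was at 70.5 and 176 CPM against 116 and 108 CPM, below other cells in mouse 1 and above them in mouse 2 (log2 0.04, SE 0.249, edgeR adjusted p = 1.00). Ctla4 showed the same split, at 87.1 and 229 CPM against 162 and 154 CPM. Ikzf2 was at 415 and 375 CPM against 420 and 329 CPM, and Ccl5 at 17365 and 13808 CPM against 14971 and 15659 CPM, and both ranges overlapped. edgeR called 0 of 11792 genes (0%), with 303 at an unadjusted p under 0.05, and DESeq2 called 2. The Treg list had 0 of 14 genes called and a median of -0.03, and the receptor signal list 0 called and a median of 0.35.

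Several Vβ11 values lay apart from other cells in both mice without passing. Ifng was at 220 and 212 CPM against 156 and 144 CPM (log2 0.53, edgeR adjusted p = 0.294). Egr2, induced by receptor signalling, was at 50.8 and 53.5 CPM against 30.6 and 23.3 CPM (log2 0.95, edgeR adjusted p = 0.26). Igfbp4 was at 56.8 and 40.8 CPM against 113 and 158 CPM (log2 -1.43, edgeR adjusted p = 0.112), and Gzma at 16.7 and 28.2 CPM against 49.0 and 58.8 CPM (log2 -1.29, edgeR adjusted p = 0.112). A miss of the threshold with 2 mice does not show that Vβ11 and other cells are alike. Without the largest clonotype 34 genes were called, and with 1 cell per clonotype 24.

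Vβ12 was the smallest family with 40 and 60 cells, and its Foxp3 level lay between those of Vβ5 and Vβ11 in each mouse. Foxp3 was at 180 and 284 CPM against 116 and 108 CPM (log2 0.97, SE 0.239, edgeR adjusted p = 0.0173). Ikzf2 was at 1271 and 622 CPM against 420 and 329 CPM (log2 1.14, SE 0.256, edgeR adjusted p = 0.00337). Itgae rose by 1.17, Ikzf4 by 1.39 and Cep112 by 1.88. Nr4a1 was at 272 and 94.6 CPM against 50.6 and 32.9 CPM (log2 1.87), high in mouse 1. edgeR called 60 of 11688 genes (0.513%), 20 higher (0.171%) and 40 lower (0.342%). Without the block 9 were called, with DESeq2 18 and with 1 cell per clonotype 5. The Foxp3 call was lost under each of these and without the largest clonotype (edgeR adjusted p = 0.133). With 1 cell per clonotype Foxp3 was at 0.19, Itgae at 0.21, Ikzf4 at 0.17, Cep112 at 0.85 and Ikzf2 at 0.62, none past the threshold. Without the block these calls and that of Nr4a1 were lost as well (edgeR adjusted p of 0.133 to 0.224), and with DESeq2 those of Itgae (adjusted p = 0.255) and Ikzf4 (0.826).

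Among the 40 genes called lower in Vβ12 were genes of the cytotoxic and Th1 lists. Of 12 cytotoxic genes 5 fell and none rose, and of 16 Th1 genes 6 fell and none rose, with medians of -0.90 and -0.83. Ccl5 was at 4452 and 3366 CPM against 14971 and 15659 CPM (log2 -2.10). Gzma was at 9.21 and 4.21 CPM against 49.0 and 58.8 CPM (log2 -3.33), and Cx3cr1, the fractalkine receptor, at 9.21 and 2.10 CPM against 21.9 and 50.1 CPM (log2 -3.25). Xcl1, a chemokine gene, was at 0 and 2.10 CPM against 74.0 and 60.9 CPM. Gcg had no UMI in Vβ12, which is at least 7.99-fold lower than in other cells at a floor of 3 counts over the class. In the naive list no gene of 14 passed and the median was 0.42, opposite in sign to the Vβ5 value. Igfbp4 was at 239 and 164 CPM in TRBV15 against 113 and 158 CPM in other cells. The TRBV15 value of mouse 1 came from 1 of 40 cells, and that of mouse 2 from 12 of 60. Of other cells, 6.77% and 7.75% had an Igfbp4 UMI, so by cells TRBV15 was below them in mouse 1. With 1 cell per clonotype Ccl5 was at -0.55 and Cx3cr1 at -1.42, both short of the threshold (edgeR adjusted p = 0.761 and 1.00). The Gzma call was lost with DESeq2 (adjusted p = 0.0639), and those of Cx3cr1 and Gcg without the block (edgeR adjusted p = 0.571 and 0.0803).

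Vβ5 and Vβ11 cells were then compared with each other, in a comparison added after the family results were seen, as were the comparisons within and outside the Treg-like cluster. Foxp3 was at 457 and 536 CPM in Vβ5 and 70.5 and 176 CPM in Vβ11 (log2 2.12, SE 0.218, edgeR adjusted p = 0.000417). Ikzf2 was at 1319 and 1028 CPM against 415 and 375 CPM (log2 1.57, SE 0.128, edgeR adjusted p = 0.000118). Rln3 differed by 3.44, Ctla4 by 2.32, Il2ra by 1.45 and Nr4a1 by 1.25. With 1 cell per clonotype Il2ra differed by 0.70 and missed the threshold (edgeR adjusted p = 0.206), and its call was lost without the block (edgeR adjusted p = 0.108). Spp1 was at 1.46 and 0.512 CPM against 47.0 and 12.6 CPM (log2 -4.75, SE 0.515, edgeR adjusted p = 0.000566). Crtam, Klrd1 and Xcl1 were lower in Vβ5 by 4.55 to 4.73, and each was high in Vβ11 of mouse 1 only: Crtam at 136 and 8.75 CPM, Klrd1 at 94.7 and 15.6 CPM and Xcl1 at 266 and 19.4 CPM. The Crtam call was lost with DESeq2 (adjusted p = 0.0779). Igfbp4 did not differ past the threshold (-0.28). edgeR called 486 of 9110 genes (5.33%), 274 higher (3.01%) and 212 lower (2.33%), DESeq2 called 133, and 12 of 13 tested Treg genes were higher.

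Within the Treg-like cluster, 123 and 188 Vβ5 cells were compared with 387 and 484 other cells, so that both sides were chosen for Treg transcripts. Foxp3 was at 526 and 628 CPM against 623 and 683 CPM (log2 -0.14, edgeR adjusted p = 0.278), and Ikzf2 at 1192 and 1073 CPM against 1233 and 1170 CPM (-0.05). Igsf23 was higher in Vβ5, at 71.7 and 68.7 CPM against 22.4 and 15.3 CPM (log2 1.97), as was Tnip3, at 76.3 and 76.4 CPM against 31.4 and 21.9 CPM (log2 1.60). Ctla4 was at 762 and 976 CPM against 585 and 534 CPM (log2 0.68), and Il2ra at 103 and 169 CPM against 179 and 265 CPM (log2 -0.66). Il2ra was thus lower and Ctla4 higher in Vβ5 within the cluster, and the ranges did not overlap for either gene. Nrn1, neuritin, was at 2.31 and 19.4 CPM against 94.2 and 85.6 CPM (log2 -2.75), and Spry1, a brake on receptor tyrosine kinase signalling, fell by 2.72.

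In the same cells 7 of 12 naive genes were lower and 1 higher (median -0.79), among them Klf2 at 68.2 and 99.98 CPM against 168 and 309.9 CPM. Gzmk (1.38), Cxcr6 (1.36) and Gstt1 (1.82) were higher. Klk1b27, at 2.46, shares 41.7% of its sequence words with related kallikrein genes. edgeR called 468 of 9360 genes (5.00%), 232 higher (2.48%) and 236 lower (2.52%), but 113 without the block and 20 with DESeq2. The calls for Ctla4, Il2ra and Nrn1 were lost with DESeq2 (adjusted p = 0.481, 0.207 and 0.507).

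Outside the Treg-like cluster the 4 segments together still had more Foxp3 than other cells. It was at 112 and 114 CPM against 34.5 and 20.7 CPM (log2 2.03, SE 0.152, edgeR adjusted p = 6.76e-07). By cells, Vβ11 lay on either side of other cells, with Foxp3 in 7.27% and 3.51% against 6.18% and 3.90%. In Vβ5 it was found in 27 of 54 and 23 of 52 cells, and in Vβ12 in 6 of 27 and 4 of 38. Of the Vβ5 cells with Foxp3, 17 and 16 were in the proliferating-like cluster. Vβ5 cells outside the Treg-like cluster were deeper, with median UMIs of 7046 and 8530 against 5669 and 6265. The part of depth was not tested. Over the 4 segments Rln3 was at 65.4 and 51.2 CPM against 8.75 and 5.70 CPM (log2 2.98), Ikzf2 differed by 1.21 and Cep112 by 2.38. Gzma was lower, at 14.2 and 20.5 CPM against 56.5 and 67.2 CPM (log2 -1.88), and Spp1 fell by 2.21, a call lost with DESeq2 (adjusted p = 1.00). Treg list genes were called higher in 7 of 14 (median 1.01) and proliferation genes in 11 of 22 (median 0.48), with none lower in either list. H2-Ab1, a class II gene, was at 5.27 and 80.1 CPM against 5.03 and 8.27 CPM. A single Vβ11 cell of mouse 2, in the cluster led by C1qb, held 804 of the 1027 class II UMIs of Vβ11 in that mouse. edgeR called 137 of 11615 genes (1.18%), 97 higher (0.835%) and 40 lower (0.344%), but 1 without the block (Foxp3 then had an adjusted p of 0.062, and 10 of 11 named calls were lost) and 29 with DESeq2. Dendritic list genes summed to 164 and 644 CPM against 117 and 118 CPM, and 4 of 5 tested were called higher.

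Against Vβ3 cells, the largest single family in these hosts, Treg genes were again higher in the 4 segments. Foxp3 was at 261 and 394 CPM against 59.0 and 90.3 CPM in Vβ3 (log2 2.12, SE 0.0813, edgeR adjusted p = 5.44e-143). In this fit the spread was pooled fully across genes, so the p-value does not measure the spread of Foxp3 between the 2 hosts. Rln3 was at 231 and 229 CPM against 27.0 and 27.6 CPM (log2 3.06). Igfbp4, lower than in other cells, was higher than in Vβ3 cells, at 63.4 and 55.9 CPM against 8.57 and 5.18 CPM (log2 3.13). Spp1 likewise changed sides, at 22.0 and 8.10 CPM against 3.17 and 4.59 CPM (log2 1.86), with the call lost without the block (edgeR adjusted p = 0.061). Gcg was at 10.7 and 2.32 CPM against 192 and 93.7 CPM (log2 -4.52), and Gm20400 at 44.8 and 20.8 CPM against 371 and 370.2 CPM (log2 -3.55). edgeR called 2040 of 11674 genes (17.5%), 1101 higher (9.43%) and 939 lower (8.04%), DESeq2 460, and edgeR without the block 453.

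By list, 11 of 14 Treg genes were higher than in Vβ3 cells and 1 lower (median 1.32). All 4 tested B cell genes (median 2.37) and all 4 tested dendritic genes (median 1.35) were higher too. B cell list genes summed to 304 and 426 CPM against 115 and 143 CPM, and dendritic list genes to 469 and 800 CPM against 264 and 227 CPM. The 800 CPM of mouse 2 again include the single Vβ11 cell with 804 class II UMIs. The part of these lists in the Treg values was not tested. Of 13 follicular helper genes 11 were lower and none higher (median -0.59), and of 12 cytotoxic genes 10 were higher and none lower (median 0.66). Of 22 proliferation genes 19 were higher (median 0.58). Ly6c1 (4.08) and Gstp2 (-3.55) share 46.8% and 60.3% of their sequence words with paralogs and are uncertain. The cluster led by Il4 and Sostdc1 held 2.53% and 4.93% of the 4 segments and 33.3% and 35.3% of Vβ3 cells.

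Clonal expansion was measured from the receptors. A clonotype is here a V segment, J segment and CDR3 nucleotide sequence shared within 1 mouse. The 841 cells fell into 183 and 240 clonotypes, with 2.16 and 1.86 cells each, against 2.84 and 2.80 in other cells. Vβ11 had 3.56 and 2.28 cells per clonotype, Vβ5 1.67 and 1.85, and Vβ12 1.48 and 1.30. In draws of 100 cells, Vβ11 gave 34.2 and 48.8 distinct clonotypes, Vβ5 67.6 and 68.1, and other cells 70.4 and 67.4. Vβ11 thus gave the fewest clonotypes of these 3 in both mice, while Vβ5 and other cells overlapped. Other cells pool many V calls, however, and single calls among them varied widely. TRBV14 gave 13.2 and 18.8 and TRBV13-3 34.4 and 27.3, but TRBV2 gave 57.0 and 55.6. A low number was therefore not particular to Vβ11. Vβ12 had too few cells for such draws.

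Treg-like cells were spread over many Vβ5 clonotypes. Most cells of a clonotype were Treg-like in 78 of 106 and 98 of 130 Vβ5 clonotypes, 10 of 50 and 20 of 64 Vβ11 clonotypes, 10 of 27 and 15 of 46 Vβ12 clonotypes, and 229 of 901 (25.4%) and 334 of 1143 (29.2%) clonotypes of other cells. Among clonotypes of at least 2 cells, every cell was Treg-like in 11 of 23 and 24 of 40 for Vβ5, and no cell in 1 and 5. For Vβ11 every cell was Treg-like in 0 of 17 and 5 of 18, and no cell in 14 and 11. The remaining Vβ5 clonotypes, 11 in each mouse, held Treg-like cells together with cells of other clusters.

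**Figure D5:**
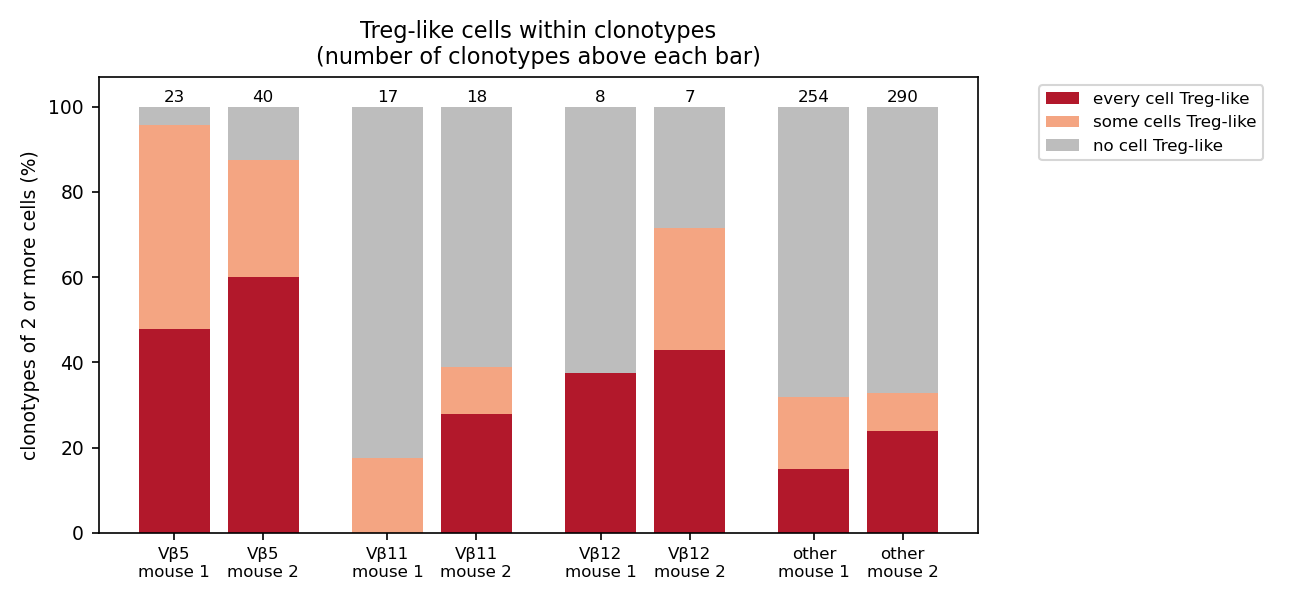
Clonotypes of 2 or more cells (y axis, % of clonotypes) in which every cell, some cells or no cell was in the Treg-like cluster, for Vβ5, Vβ11, Vβ12 and other cells in each mouse (x axis), with the number of clonotypes above each bar. Clonotypes with no Treg-like cell are 1 of 23 and 5 of 40 in Vβ5 and 14 of 17 and 11 of 18 in Vβ11.

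The largest clonotypes show segment, junction and state side by side. They are defined by the β chain alone, so a clonotype need not be a single lineage. Each line gives the TRB CDR3 nucleotide sequence of the largest clonotype of a segment in a mouse, with bases outside the V and J germline segments in capitals.

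TRBV12-1 mouse 1: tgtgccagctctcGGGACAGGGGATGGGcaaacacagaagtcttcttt

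TRBV12-1 mouse 2: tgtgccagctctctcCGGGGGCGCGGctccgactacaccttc

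TRBV12-2 mouse 1: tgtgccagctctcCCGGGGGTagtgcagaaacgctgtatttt

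TRBV12-2 mouse 2: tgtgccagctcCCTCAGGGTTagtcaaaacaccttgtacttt

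TRBV16 mouse 1: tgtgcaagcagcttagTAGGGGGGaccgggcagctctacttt

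TRBV16 mouse 2: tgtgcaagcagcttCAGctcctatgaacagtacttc

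TRBV15 mouse 1: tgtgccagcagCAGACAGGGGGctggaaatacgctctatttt

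TRBV15 mouse 2: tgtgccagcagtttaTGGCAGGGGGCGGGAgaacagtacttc

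The TRBV12-1 clonotypes joined TRBJ1-1 and TRBJ1-2 and had 9 cells each, of which 9 and 8 were Treg-like. The TRBV12-2 clonotypes had 15 cells each, but none was Treg-like in mouse 1 (TRBJ2-3) and 14 were in mouse 2 (TRBJ2-4). The TRBV16 clonotype of mouse 1 (TRBJ2-2) had 51 cells, 28.7% of that segment's cells, with none Treg-like and TRAV7D-2 in all 48 cells with a TRA contig. That of mouse 2 (TRBJ2-7) had 33 cells, 22.6%, with 1 Treg-like and TRAV10D in 31 of 32 cells with a TRA contig. The TRBV15 clonotypes had 5 cells each, with 0 Treg-like in mouse 1 (TRBJ1-3) and 4 in mouse 2 (TRBJ2-7). In that of mouse 2 the leading α segment, TRAV13N-2, was found in 3 of 5 cells. Large clonotypes were therefore of either state within TRBV12-2 and TRBV15.

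Identical rearrangements in both hosts were few. Of the clonotypes of the 4 segments, 5 were found in both mice by V, J and CDR3 nucleotides (2.73% and 2.08%), against 21 of other cells (2.33% and 1.84%). In 4 of the 5, and in 17 of the 21, the cells also shared a TRA CDR3, and no cell barcode was shared within these pairs. The 2 with more than 1 cell in each mouse were both TRBV16: the TRBJ2-2 clonotype above, with 51 and 2 cells and none Treg-like, and a TRBJ2-5 clonotype with 3 and 4 cells, 6 of 7 of them Treg-like.

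TRBV16 TRBJ2-5: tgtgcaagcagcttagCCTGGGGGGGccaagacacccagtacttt

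The median CDR3 length was 14 codons in each mouse for each of the 4 segments and for other cells. TRBJ1-1 was used by 22.6% and 23.1% of Vβ5 clonotypes and 10.8% and 11.7% of clonotypes of other cells. Among clonotypes that were mostly Treg-like the values were 24.4% and 23.5% in Vβ5 and 10.9% and 10.8% in other cells. TRBJ2 segments together were used by 56.6% and 53.1% of Vβ5, 78% and 73.4% of Vβ11, 70.4% and 78.3% of Vβ12 and 66.0% and 67.2% of other clonotypes.

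TRAV4 family members were found in 16.3% and 20.3% of Vβ5 clonotypes with a TRA contig and 9.03% and 7.03% of those of other cells, and TRAV7 in 25.0% and 17.2% against 10.3% and 13.8%. TRAV9 was less frequent, in 2.88% and 2.34% against 10.3% and 9.74%. In mostly Treg-like clonotypes TRAV9 was found in 2.56% and 3.06% of Vβ5 and 10.7% and 12.5% of other cells. TRAV4 was found there in 19.2% and 19.4% against 11.1% and 8.56%. For TRAV4 and TRAV9 both Vβ5 values lay on 1 side of both values of other cells in each of these sets, and with 2 mice no exact test can reach the threshold.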

How the data were processed

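The 4 libraries used were an expression and a receptor library from each of 2 hosts. Per the submitters' processing notes, Cell Ranger 7.0.1 was used, with the builds mm10 and GRCm38 named. The deposited matrices hold raw UMI counts per gene and cell barcode, and the deposited contig tables hold read and UMI counts per contig. Members and gene lists were chosen with earlier results of these data known, so they are descriptions and not independent support.

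Of the contig barcodes (7587 and 7763), 615 and 512 were absent from the matrices. Of barcodes passing the cell filter with a TRB contig (6701 and 7034), 708 and 702 with more than 1 TRB contig were left out. No doublet caller was run. The annotation was GENCODE M21.

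UMIs were summed per mouse and class without 268 receptor segment genes and tested with edgeR 4.0.16 (TMM, filterByExpr, quasi-likelihood, Benjamini-Hochberg adjustment), with the mouse as a block, since both classes come from the same mouse. Each fit has 4 sums and 1 residual degree of freedom, so p-values rest mostly on a spread pooled across genes. DESeq2 1.42.0 was an alternative. CPM were computed from the deposited counts. Clusters came from scanpy 1.11.5 (2000 variable genes, 30 components, 15 neighbours, Leiden 0.6). Named genes were the largest called changes each way with at least 20 CPM in 1 class, and 2 genes per list. A fixed set was added: Foxp3, Il2ra, Ikzf2, Pdcd1, Ctla4, Il21, Ifng, Il2, Cd40lg, Mki67, Id3, Tcf7, Ccl5, Nkg7, Igfbp4, Spp1, Egr2 and Nr4a1. Further members of the gene lists were named as well. On simulated sums for the comparison of the 4 segments with other cells, 79% of genes changed by 1 and 97% of those changed by 2 on the log2 scale were recovered among 11856 genes. For Vβ12 the shares were 18% and 57% among 11475 genes. The simulation gave all genes the same dispersion and no mouse effect, so these shares need not hold for the real counts.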

Additional observations from a re-analysis of the deposited data

Results flagged for a closer look

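Within the compared class, the 2 best-filled families differed from each other by a direct test. Between Vβ5 and Vβ11 cells, 486 genes passed edgeR's quasi-likelihood test at an adjusted p under 0.05. Foxp3 was higher in Vβ5 by 2.12 on the log2 scale and Ikzf2 by 1.57, each in 2 of 2 mice, and Spp1 was lower, at -4.75. The level of such a gene over the 4 segments together therefore depends on the mix of segments. Without TRBV16 1951 genes were called against other cells, and without TRBV12-1 189. The weight of the pooled spread, set by prior degrees of freedom, changed too: 5.35 with all 4, infinite without TRBV16 and 10.6 without TRBV12-1. The part of the segment mix in these counts was not tested.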

How the results depend on the processing

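Precision is limited by 2 hosts and by cell number, above all in Vβ12 with 217200 and 475598 summed UMIs. The prior degrees of freedom that set the weight of the pooled spread differed between settings, for the 4 segments from 4.92 without the replicate block to infinite, as without TRBV16. They were also infinite in the main fits against Vβ3 cells, for Vβ12 and within the Treg-like cluster. The p-values of those fits rest on the pooled spread alone. Leaving out a mouse leaves no residual degrees of freedom, so counts without it could not be had and values of each mouse stand in the report.

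For the 4 segments against other cells, 295 genes were called. Without the replicate block the count was 109, with DESeq2 176, with library totals alone 659, without the filter on low counts 1162, and with other cells drawn to the cluster composition 81. With 9 V calls as separate classes and the remaining V calls left out it was 290, within 1.5 times the count. Yet 14 of 37 named calls were lost there. At matched composition 15 were lost, without the replicate block 10, and under any other setting at most 3. With 1 cell per clonotype it was 876, and 1136 and 1013 in the other two draws. It was 632 where the leading V transcript matched, 607 with exactly 1 TRA chain, 776 with the stricter cell filter, 499 without the joint TRBV12-2+TRBV13-2 call, 457 without the C1qb cluster, and 1094 without the top 5% of cells by UMIs. It was 913 without the largest clonotype, 1481 without clonotypes over 10 cells, 189 without TRBV12-1, 335 without TRBV12-2, 572 without TRBV15 and 1951 without TRBV16. The other two draws, the match of the leading V transcript, the setting without the C1qb cluster, matched composition for Vβ5 and the last 3 comparisons below were chosen after seeing the data.

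Against Vβ3 cells the 2040 calls became 453 without the replicate block and 460 with DESeq2. For Vβ5 the 1959 became 1215 without the block, 708 with DESeq2 and 405 at matched composition. For Vβ11 the 0 calls became 24 with 1 cell per clonotype, 2 with DESeq2 and 34 without the largest clonotype. For Vβ12 the 60 became 5, 9 without the block and 18 with DESeq2. For Vβ5 against Vβ11 the 486 became 256 with 1 cell per clonotype and 133 with DESeq2. Within the Treg-like cluster the 468 became 209, 113 without the block and 20 with DESeq2, and outside it the 137 became 214, 1 and 29. The share of the 4 segments, 6.82%, was 7.52% with any TRB contig counted, and by the leading V transcript 11.2% over all barcodes and 8.76% in kept cells.

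Of 1399 tested alternative values for named genes, 1196 kept their direction and side of the threshold, 117 no longer passed, 68 newly passed and 18 changed sign. At matched composition, for the 4 segments, Il2ra was -0.18, Tnfrsf9 -0.11, Il21 0.0564, Ifng 0.0527 and Il2 0.26, and for Vβ5 Il2ra was -0.37, Itgae -0.0655 and Igfbp4 0.61. With 1 cell per clonotype Nkg7 was 0.14 (0.13 and 0.15 in the other draws, 0.12 without clonotypes over 10 cells) for the 4 segments and 0.00968 for Vβ5, and Nrgn was 0.0139 in the third draw. Also with 1 cell per clonotype, Gcg was 0.11 in Vβ11, Pdcd1 0.19 in Vβ12 and Ikzf2 0.0824 within the Treg-like cluster. Ctla4 in Vβ11 was 0.0870 without the largest clonotype. With its sign changed, Nkg7 passed the threshold in the other draws and without clonotypes over 10 cells (edgeR adjusted p = 0.0181, 0.0278 and 0.0330). So did Il2ra for Vβ5 at matched composition (edgeR adjusted p = 0.0187). The cause of the sign changes was not tested.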

Other observations

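TRBV5 cells, which are not among the 4 segments, had the Treg-like share nearest to Vβ5 in mouse 1 (42.9%, 36.5% to 49.4%), but 21.7% (17% to 27.0%) in mouse 2. Cells with the joint TRBV12-2+TRBV13-2 call had 18.1% and 24.5%. Klrg1 was highest in the Vβ5 segments among 21 V calls, at 170.2 and 153.9 CPM in TRBV12-1 and 144.5 and 237 CPM in TRBV12-2. TRBV12-1 had the lowest Pdcd1 of the 21 in both mice, at 88.5 and 67.9 CPM.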
